A study of Mus musculus with 6 samples.

Results

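Basal cell and squamous epithelial genes were taken as 10 named genes, Trp63, Krt5, Krt14, Krt15, Krt4, Krt13, Sprr1a, Ly6d, Sfn and Tmem45b, looked up by symbol among the 54532 genes of the deposited count table. All 10 were found, and 8 of them passed the filter on low counts (0.5 CPM, counts scaled to library size, in at least 1 library), while Krt4 and Krt13 did not. The genes were named with the comparison of these same libraries in view, so their differences between genotypes are a description of these libraries and carry no independent evidence. RNA-seq was performed on whole lungs of untreated mice aged 2 months, perfused with PBS, with 3 libraries per genotype. The WT mice were purchased C57BL/6J animals, and the ISM1-/- mice, designed to lack the secreted protein Isthmin-1, were made in-house on the same background, so genotype and origin of the mice cannot be told apart. The labels and methods give separate replicates but do not tie each library to a single named animal, so p-values measure the spread between these libraries. In whole lung RNA, fewer cells of a type and less RNA per cell cannot be told apart.

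Basal cells are the stem cells of the pseudostratified airway epithelium. In the mouse they line the trachea and the main bronchi and are rare in the smaller airways within the lung. They depend on the transcription factor p63, and they build a cytoskeleton from the keratin pair of KRT5 and KRT14 that is anchored at hemidesmosomes and desmosomes. In squamous epithelia the layers above switch to other keratins, such as KRT4 and KRT13, and load precursors of the cornified envelope, among them the small proline-rich (SPRR) proteins, that transglutaminases cross-link under the membrane.

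Libraries held between 37606133 and 42345042 counts, with a median of 39101437, and 18689 genes were tested. The targeted gene Ism1 had counts of 3098, 3215 and 2975 in WT and of 2784, 2508 and 2953 in the libraries labelled ISM1-/-. These are 78.9 ± 2.88 and 69.1 ± 5.72 CPM (SD, n = 3), a log2 fold change of −0.19 (SE 0.0709, Benjamini-Hochberg adjusted p = 0.217, edgeR quasi-likelihood test). Transcript of the targeted gene was thus kept, and the deleted part of the gene is not given in the sources used here, so genotype is known from the labels alone and ISM1-/- stands hereafter for the libraries so labelled. WT replicate 3 stood apart by thymus genes and WT replicate 1 by heart muscle genes, and results that rest on them are given with and without them. A gene was called when its adjusted p was under 0.1 and its difference 2-fold or more.

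The 10 genes did not move together. Sprr1a, Tmem45b and Krt15 fell in the libraries labelled ISM1-/-, while the defining basal cell genes Trp63 and Krt14 had slightly higher means there and Krt5 had a lower mean that rested largely on a single WT library. Of the 8 genes tested, 3 were called lower and none higher by the edgeR quasi-likelihood test after Benjamini-Hochberg adjustment, where 0.284% of all genes tested were called lower and 0.284% higher. At an unadjusted p under 0.05, 5 of the 8 were lower and 0 higher, and DESeq2 on the same counts also called 3 lower and 0 higher. All 3 WT libraries lay above all 3 libraries labelled ISM1-/- in 4 of the 10 genes, against 12.3% of all genes tested, and the reverse held in none of them, against 9.33%. Since the genes were chosen from this contrast, nothing is read from these counts. The median log2 fold change of the 8 genes was −0.66, with a range from −2.06 to 0.37, and the median of all genes tested was 0.00 (0.0043), with the middle of the distribution between −0.12 and 0.10. Without WT replicate 3 the median of the members was −0.36. Without WT replicates 1 and 3 together, an omission chosen after the data were seen, no member was called, while the log2 fold changes were −1.30 for Sprr1a, −1.80 for Tmem45b and −0.87 for Krt15 with a single WT library left. Among basal cell markers, Trp63 (0.25, SE 0.301) and Krt14 (0.11, SE 0.405) had higher means, by less than their standard errors. Krt5 (−1.01), Krt15 (−1.02), Krt17 (−1.36) and Ngfr (−0.62) had lower means. Of these only Krt15 was called, and Krt5 and Krt17 were highest in WT replicate 3. Ngfr was highest in WT replicate 1, and its log2 fold change was −0.28 without that library. A fit of Krt17 without WT replicate 3 is not reported here. Whether basal cell transcripts fell in common was not tested, and the genes are described one role at a time.

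**Figure D1:**
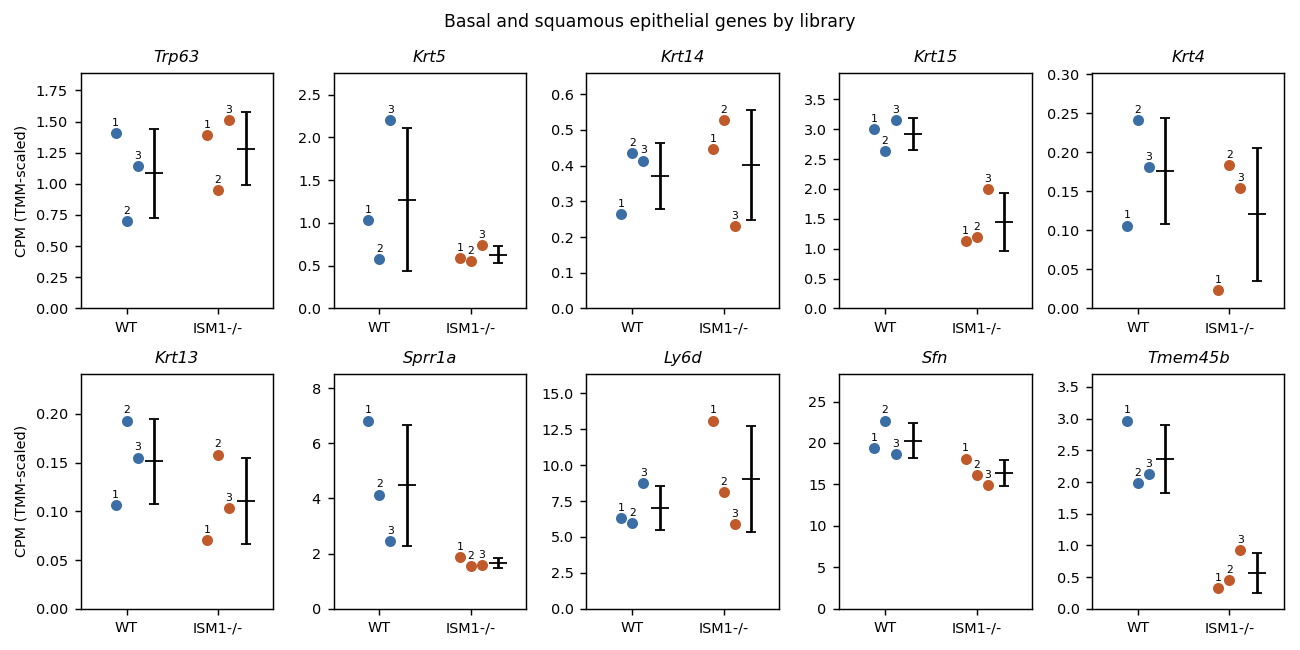
TMM-scaled CPM (vertical axes, each starting at 0 with its own range) of the 10 genes in the 3 WT (blue) and 3 ISM1-/- (orange) libraries. Numbers are replicates, bars give mean ± SD over 3 libraries, and the genotypes are without overlap only in Krt15, Sprr1a, Sfn and Tmem45b.

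In FPKM, which divides counts by library total and gene length, the genes span a wide range. Sfn (11.4 FPKM, mean over 6 libraries) and Ly6d (10.8 FPKM) were highest, and which of them led changed between libraries, with Sfn above Ly6d in 3 of 6. Sprr1a followed at 3.82 FPKM, Krt15 at 1.83 FPKM and Tmem45b at 1.01 FPKM. The remaining genes were all under 1 FPKM on average, in the order Krt5 (0.432), Trp63 (0.331), Krt14 (0.274), Krt13 (0.165) and Krt4 (0.0694). The ranges of every pair of neighbours in this order overlapped over the 6 libraries. Within each library, however, Sprr1a lay above Krt15, Krt15 above Tmem45b, Krt14 above Krt13 and Krt13 above Krt4 in 6 of 6. Krt5 lay above Trp63 in 3 of 6 libraries and Trp63 above Krt14 in 4 of 6, so the defining basal cell genes had no order beyond their spread. Taking log2(FPKM + 0.1) in place of FPKM left each gene at the same rank.

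Trp63 (chr16:25683763-25892102, forward strand, GRCm38) encodes p63, the transcription factor that defines basal cells. It had counts of 53, 29 and 44 in WT and of 59, 36 and 59 in the libraries labelled ISM1-/-. These are 1.41, 0.699 and 1.14 CPM in WT and 1.39, 0.949 and 1.51 CPM in ISM1-/-. The ranges overlapped almost fully, and the lowest library was a WT one. The log2 fold change was 0.25 (SE 0.301, Benjamini-Hochberg adjusted p = 0.753, edgeR quasi-likelihood test), between 0.02 and 0.49 with each library left out in turn.

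Krt14 (chr11:100203162-100207548, reverse strand), the acidic keratin that pairs with KRT5 in basal cells, was measured on few reads, with counts of 10, 18 and 16 in WT and of 19, 20 and 9 in ISM1-/-. Its levels were 0.371 ± 0.092 CPM in WT and 0.402 ± 0.153 CPM in ISM1-/- (SD, n = 3), and both the highest and the lowest library were labelled ISM1-/-. The log2 fold change of 0.11 (SE 0.405, Benjamini-Hochberg adjusted p = 0.936, edgeR quasi-likelihood test) turned to −0.08 without WT replicate 1. With 44 counts in WT and 48 in ISM1-/- in all, a moderate difference was not detectable at this depth.

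Krt5 (chr15:101707070-101712898, reverse strand), the basic partner of KRT14, had counts of 39, 24 and 85 in WT and of 25, 21 and 29 in ISM1-/-. On the CPM scale the WT libraries lay at 1.03, 0.578 and 2.20 and the libraries labelled ISM1-/- at 0.588, 0.553 and 0.743. WT replicate 3 was thus 3.80 times as high as WT replicate 2, and without it the genotypes lay close together. The log2 fold change over all libraries was −1.01 (SE 0.443, Benjamini-Hochberg adjusted p = 0.305, edgeR quasi-likelihood test), it was −0.35 without WT replicate 3, and it was 0.12 without WT replicates 1 and 3 together.

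The same library carried a cluster of thymus transcripts. Rag1, a recombinase gene of developing lymphocytes, had counts of 4, 2 and 1075 in WT and of 20, 3 and 8 in ISM1-/-. Foxn1, the transcription factor of thymic epithelium, had 1, 0 and 18 counts in WT and none in ISM1-/-, and Psmb11, a proteasome subunit of cortical thymic epithelium, had 2, 1 and 51 counts in WT and again none. Over the list of 11 thymus genes, 8 of which were tested, none was called in either direction by edgeR, 5 were lower at an unadjusted p under 0.05, and the summed level was 15.8 to 88.2 CPM in WT and 21.2 to 32.7 CPM in ISM1-/-. DESeq2 called none either, but gave no adjusted p for 5 of the 8, Rag1, Dntt and Prss16 among them. Without WT replicate 3 the WT libraries lay at 15.8 and 17.5 CPM. Thymic epithelium is known to express KRT5 along with KRT14 and p63. Trp63 and Krt14 were not highest in this library, and neither were Krt1 and Ivl, but some other keratinocyte genes, picked after their values were seen, were. Krt17 had counts of 9, 1 and 53 in WT and of 12, 5 and 8 in ISM1-/-, and Pkp1, a desmosome plaque gene, had counts of 1, 2 and 20 in WT and of 3, 3 and 5 in ISM1-/-. Dsc3, a desmosomal cadherin of basal layers, had counts of 1, 2 and 16 in WT and of 11, 2 and 1 in ISM1-/-. Their part in the level of Krt5 was not tested beyond the value without that library.

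Krt15 (chr11:100131758-100135928, reverse strand), an acidic keratin of basal cells and of quiescent stem cells of stratified epithelia, did not show that pattern. It had counts of 113, 109 and 122 in WT and of 48, 45 and 78 in ISM1-/-. The 3 WT libraries lay between 2.63 and 3.15 CPM and the libraries labelled ISM1-/- at 1.13, 1.19 and 2.00 CPM, so the genotypes did not overlap and ISM1-/- replicate 3 lay nearest to WT. Krt15 fell to 49.1% of its WT level, from 2.93 ± 0.271 to 1.44 ± 0.487 CPM (SD, n = 3), with a log2 fold change of −1.02 (SE 0.236, Benjamini-Hochberg adjusted p = 0.0552, edgeR quasi-likelihood test). It stayed between −1.33 and −0.87 with each library left out in turn, and in 1 of these 6 fits, without ISM1-/- replicate 3, the call held. Without the others it did not, with an adjusted p of up to 0.19 in the same test. Its coefficient of variation in WT was 9.27%, against 65.8% for Krt5.

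Krt4 (chr15:101918535-101924735, reverse strand) and Krt13 (chr11:100117327-100121566, reverse strand), a keratin pair of suprabasal cells in non-cornified squamous epithelia and of the airway cell patches called hillocks, were near the limit of detection. Krt4 had counts of 4, 10 and 7 in WT and of 1, 7 and 6 in ISM1-/-. Krt13 had counts of 4, 8 and 6 in WT and of 3, 6 and 4 in ISM1-/-. Both genotypes overlapped in both genes, the mean levels were between 0.11 and 0.18 CPM, and a difference of this size was not detectable at this depth. Fitted without a filter on low counts, their log2 fold changes were −0.57 (adjusted p = 0.768) and −0.47 (adjusted p = 0.825, both from the edgeR quasi-likelihood test after Benjamini-Hochberg adjustment).

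Sprr1a (chr3:92483952-92485895, reverse strand) encodes a precursor of the cornified envelope and is also known to be induced in stressed heart muscle cells and injured neurons. It had counts of 257, 172 and 95 in WT and of 80, 59 and 62 in ISM1-/-. The WT libraries spread widely, at 6.82, 4.14 and 2.46 CPM, while those labelled ISM1-/- lay together at 1.88, 1.55 and 1.59 CPM. All WT libraries were higher, and the lowest of them was not far above the highest ISM1-/- library. Sprr1a fell 2.66-fold, from 4.47 ± 2.20 to 1.68 ± 0.179 CPM (SD, n = 3), with a log2 fold change of −1.41 (SE 0.322, Benjamini-Hochberg adjusted p = 0.0539, edgeR quasi-likelihood test). Without WT replicate 1 the change was −0.98, just under 2-fold, and the call held in 2 of the 6 fits with a library left out. Those were the fits without WT replicate 3 and without ISM1-/- replicate 3, and the adjusted p ranged up to 0.176 in the others.

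WT replicate 1, the library with the most Sprr1a, was also the one with the most heart muscle RNA. The 9 genes of the cardiomyocyte list summed to 505 to 1570 CPM in WT and 277 to 540 CPM in ISM1-/-, with WT replicate 1 at 1570 CPM and the other WT libraries at 505 and 607 CPM. All 9 had a lower mean in ISM1-/- and 1, Myl7, an atrial myosin light chain, was called lower, a call that was lost in 5 of the 6 fits with a library left out and had a log2 fold change of −0.66 (−0.655) without WT replicate 1. Myl7 lay at 95.9, 40.5 and 50.4 CPM in WT and 20.1, 29.4 and 37.0 CPM in ISM1-/-. The order of the libraries differed, since within ISM1-/- the cardiomyocyte sum was highest in replicate 3 and Sprr1a in replicate 1. The part of heart muscle in the level of Sprr1a was not tested.

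The Sprr genes lie as a cluster on chromosome 3, and Sprr1a was the only one of them with more than a trace of transcript. The table holds 17 Sprr genes, of which 1 passed the filter, and the 16 others had 1 count in all 6 libraries together, beside 725 counts of Sprr1a. The next gene on one side of Sprr1a, Sprr4, had 0 counts, as had the predicted gene Gm37377 on the other side. Within 1000000 bases on each side the table holds 90 genes, of which 6 were tested and 0 were called in either direction (0 at an unadjusted p under 0.05, and 0 with DESeq2). The transcripts of Sprr1a shared 0% of their 75-base words with transcripts of other genes.

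To show what Sprr1a has in common with neighbours without transcript, the 250 bases before the transcription start are given for 4 genes of the cluster, taken from RefSeq (GRCm38.p6) and written 5′ to 3′ along the gene. Capitals mark a TATA box (TATAAA) and sites of the form TGANTCA, the motif bound by AP-1, a factor family of stress and squamous differentiation. Both strands were searched. Sprr1b, Sprr2k and Sprr3 were picked after their values were seen.
Sprr1a (chr3:92485882-92486131, reverse strand): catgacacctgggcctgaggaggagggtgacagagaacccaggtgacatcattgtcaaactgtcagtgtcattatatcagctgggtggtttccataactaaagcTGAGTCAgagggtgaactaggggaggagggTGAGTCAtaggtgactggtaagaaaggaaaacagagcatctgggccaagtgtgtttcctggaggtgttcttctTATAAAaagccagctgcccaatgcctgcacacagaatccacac
Sprr1b (chr3:92438780-92439029, reverse strand): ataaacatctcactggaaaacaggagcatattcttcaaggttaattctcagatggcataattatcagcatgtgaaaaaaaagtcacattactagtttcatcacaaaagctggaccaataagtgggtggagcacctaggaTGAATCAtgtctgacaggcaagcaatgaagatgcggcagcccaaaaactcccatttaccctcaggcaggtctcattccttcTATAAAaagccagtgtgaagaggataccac
Sprr2k (chr3:92432332-92432581, forward strand): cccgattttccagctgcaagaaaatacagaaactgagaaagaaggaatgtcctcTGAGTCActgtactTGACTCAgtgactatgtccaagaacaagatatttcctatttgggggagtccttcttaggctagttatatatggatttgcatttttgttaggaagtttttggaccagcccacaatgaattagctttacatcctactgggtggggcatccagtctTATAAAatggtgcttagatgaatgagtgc
Sprr3 (chr3:92458721-92458970, reverse strand): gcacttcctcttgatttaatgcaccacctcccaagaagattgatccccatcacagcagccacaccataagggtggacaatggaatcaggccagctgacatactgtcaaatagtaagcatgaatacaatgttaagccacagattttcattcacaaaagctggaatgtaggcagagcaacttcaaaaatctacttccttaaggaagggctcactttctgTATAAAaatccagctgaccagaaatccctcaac
Sprr1a holds the TATA box 43 bases before the RefSeq start and 2 AP-1 motifs that begin 146 and 116 bases before it. That start lies slightly inside the gene as the deposited table gives it, so distances from the deposited start are shorter. Sprr1b holds 1 of each, Sprr2k the TATA box and 2 AP-1 motifs, and Sprr3 the TATA box alone, and all 3 had 0 counts in every library. Among 14 Sprr genes with such a window, 10 held the TATA box and 9 held both motifs. Over 32851 windows of the same length, 12.4% held TATAAA and 6.75% held TGANTCA. Presence of both motifs was thus shared with Sprr1b and Sprr2k, which had no counts in these lungs, while the number or place of the AP-1 motifs differed. They began 111 bases before the start in Sprr1b and 196 and 182 bases before it in Sprr2k. The part of these letters in the level of Sprr1a was not tested.

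Of the 10 members, 5 had a window in the same source (Sprr1a, Sfn, Krt13, Krt14 and Krt5). Krt13 held 1 AP-1 motif before its upstream start and no TATA box in that spelling, and Krt5 held neither. The window listed for Krt14 lies inside the gene as the deposited table gives it, so it is not described. Sfn held 1 site of the form AACNGGTT, a motif of grainyhead-like factors that control epithelial barrier genes, which 1.79% of all windows held.

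Tmem45b (chr9:31426196-31464462, reverse strand), a multi-pass membrane protein gene of epithelia, had the largest difference of the set. It had counts of 112, 82 and 82 in WT and of 14, 17 and 36 in ISM1-/-. The WT libraries lay at 2.97, 1.98 and 2.12 CPM and those labelled ISM1-/- at 0.329, 0.448 and 0.923 CPM. The genotypes were well apart, with the lowest WT library above the highest ISM1-/- library, which was replicate 3 as for Krt15. Tmem45b fell 4.16-fold, from 2.36 ± 0.537 to 0.567 ± 0.314 CPM (SD, n = 3), with a log2 fold change of −2.06 (SE 0.35, Benjamini-Hochberg adjusted p = 0.0222, edgeR quasi-likelihood test). The call held in 6 of 6 fits with a library left out, at −2.59 to −1.77. Tmem45b was the only member of which this was so. With WT replicates 1 and 3 both left out, which leaves a lone WT library that is assumed to vary like the others, the log2 fold change was −1.80 (SE 0.492, adjusted p = 0.294 in the same test). The paralog Tmem45a, at 9.59 ± 0.376 CPM (SD, n = 3) in WT, had a log2 fold change of 0.07 (SE 0.0938). Around Tmem45b, 14 of 42 genes within 1000000 bases on each side were tested and 0 were called (3 at an unadjusted p under 0.05, and 0 with DESeq2). Its neighbour Nfrkb had 11580 counts in all, Gm31408 on the other side had 0, and the 3 genes that overlap Tmem45b (Gm8162, 5033425B01Rik and 4930434F21Rik) had no more than 2 counts in a library.

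The summed fat cell genes followed the same order of libraries as Tmem45b and Krt15 within ISM1-/-, although Adipoq and Pck1 were lowest in replicate 2 and not in replicate 1. That order was not particular to fat cell genes. In ISM1-/- replicates 1 to 3 the club list summed to 16600, 18200 and 20800 CPM and the ciliated list to 2170, 2330 and 2430 CPM. The cardiomyocyte list (277, 386 and 540 CPM) and, within a narrow range, the squamous differentiation list (162, 167 and 170 CPM) had the same order. Most of the squamous sum was Ecm1 (99.1, 108 and 101 CPM), which did not have that order itself. The 10 genes of the adipocyte list summed to 344, 273 and 331 CPM in WT and 59.2, 72.3 and 162 CPM in ISM1-/-, with replicate 3 highest. Of the 10, 9 were called lower and none was at 0, among them Cfd, which encodes adipsin (103, 87.6 and 122 CPM in WT and 12.9, 17.2 and 42.7 CPM in ISM1-/-), and Plin1, a coat protein of lipid droplets (18.4, 12.5 and 13.1 CPM in WT and 2.80, 2.85 and 6.28 CPM in ISM1-/-). The part of fat cells in the levels of Tmem45b and Krt15 was not tested.

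Ly6d (chr15:74762056-74763620, reverse strand) encodes a GPI-anchored surface protein that is known both from keratinocytes and from lymphoid cells of the B lineage. It had counts of 237, 248 and 338 in WT and of 555, 308 and 230 in ISM1-/-. On the CPM scale WT lay at 6.29, 5.98 and 8.74 and ISM1-/- at 13.1, 8.12 and 5.90. The highest and the lowest library were both labelled ISM1-/-, and the log2 fold change of 0.37 (SE 0.26, Benjamini-Hochberg adjusted p = 0.55, edgeR quasi-likelihood test) was 0.00 (0.00353) without ISM1-/- replicate 1. The summed B cell genes had the same order of libraries within ISM1-/-. So had the summed thymus list, at 32.7, 25.9 and 21.2 CPM in ISM1-/- and 17.5, 15.8 and 88.2 CPM in WT. In ISM1-/- most of that sum was Cd8a (13.4, 8.83 and 8.02 CPM), Cd4 (10.5, 9.62 and 6.87 CPM) and Cd8b1 (7.64, 6.33 and 5.48 CPM). Rag1 lay there at 0.47, 0.0791 and 0.205 CPM, and Foxn1 and Psmb11 had no counts. In a list of 8 B cell genes added after the values were seen, the summed level was 144, 134 and 150 CPM in WT and 258, 200 and 150 CPM in ISM1-/-, none was at 0, and 3 of 8 had a higher level at an adjusted p under 0.1 without reaching 2-fold. Vpreb3, also in that list, went the other way, with 13.1, 12.2 and 11.4 CPM in WT and 8.89, 10.1 and 9.69 CPM in ISM1-/-. The part of B cells or of cells with Cd4, Cd8a and Cd8b1 in the level of Ly6d was not tested.

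Sfn (chr4:133600556-133602168, reverse strand) encodes 14-3-3 sigma, an adaptor protein of epithelial cells that p53 induces after DNA damage. It had counts of 732, 942 and 725 in WT and of 768, 612 and 582 in ISM1-/-. Its levels were 19.4, 22.7 and 18.7 CPM in WT and 18.1, 16.1 and 14.9 CPM in ISM1-/-, so all WT libraries lay above all others by a narrow margin. The log2 fold change of −0.31 (SE 0.101, Benjamini-Hochberg adjusted p = 0.159, edgeR quasi-likelihood test) did not pass the test and was well short of 2-fold. The 6 tested 14-3-3 relatives (Ywhab, Ywhae, Ywhag, Ywhah, Ywhaq and Ywhaz) had log2 fold changes between −0.07 and 0.15. Of the Sfn transcript, 7.41% of 75-base words also occur in transcripts of other genes, most of them in the pseudogene Gm7850, so a small share of its reads is uncertain.

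**Figure D2:**
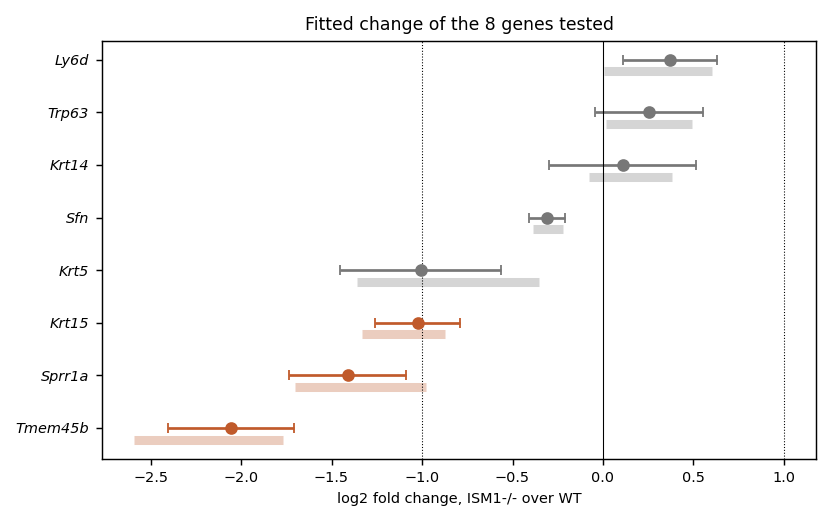
Fitted log2 fold change (horizontal axis) of the 8 genes tested. Points with lines are the estimate ± its standard error over all 6 libraries, pale bands the range over the fits that each leave out a library (6 per gene, and 5 for Krt14, which is under the filter without ISM1-/- replicate 2), orange marks the 3 genes called lower, and dotted lines a 2-fold change. Only the band of Tmem45b (−2.59 to −1.77) lies wholly beyond a 2-fold change.

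**Figure D3:**
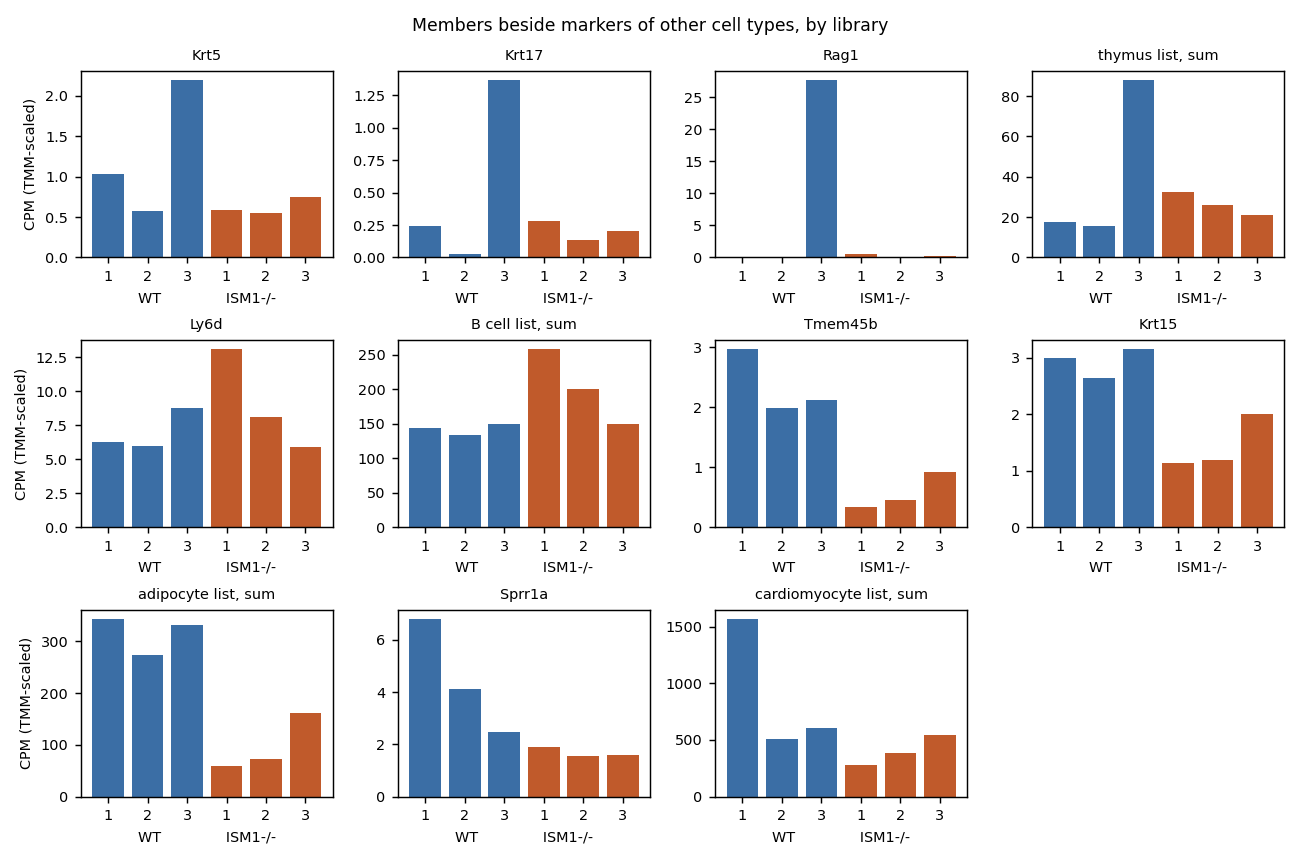
TMM-scaled CPM (vertical axes from 0) by library for members and for genes or summed lists of other cell types, WT in blue and ISM1-/- in orange, numbers being replicates. Krt5 and Krt17 peak in the library with the thymus genes (WT replicate 3), Ly6d in the library with the most B cell genes (ISM1-/- replicate 1), and Tmem45b and Krt15 are highest within ISM1-/- in the library with the most adipocyte genes (replicate 3). Within ISM1-/- the summed cardiomyocyte list, and the club and ciliated lists that are not drawn, are also highest in replicate 3.

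Partners of these genes were examined in 6 lists with 100 genes, of which 68 were tested. Among them 1 gene was called lower and none higher, and 10 had an adjusted p under 0.1 (edgeR quasi-likelihood test after Benjamini-Hochberg adjustment), all lower in ISM1-/-, where 3.34% of all genes tested were lower and 1.38% higher on that criterion. The median log2 fold change of the 68 genes was −0.08, beside 0.00 (0.0043) over all genes tested.

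Genes for adhesion of basal cells and their markers gave 0 calls among 16 tested of 17 by edgeR or DESeq2, 4 at an unadjusted p under 0.05, with a median log2 fold change of −0.03. The hemidesmosome genes Itga6 and Itgb4 lay at 232 and 32.3 CPM in WT and at 243 and 28.3 CPM in ISM1-/-. Col17a1, a hemidesmosomal collagen, had a log2 fold change of −0.38 (Benjamini-Hochberg adjusted p = 0.076, edgeR quasi-likelihood test). Ngfr, a nerve growth factor receptor on basal cells, had −0.62 at an adjusted p of 0.349 in the same test.

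Desmosome genes gave 0 calls among 9 tested of 13 by edgeR or DESeq2, 1 at an unadjusted p under 0.05, and the cadherins Dsg3 and Dsc1 were at 0 in every library. The plaque genes Dsp, Jup and Pkp3, which simple epithelia also use, lay within 0.06 of no change on the log2 scale, at −0.04, −0.05 and −0.02. Dsg2, the widely expressed desmosomal cadherin, had a log2 fold change of −0.38 (Benjamini-Hochberg adjusted p = 0.0491, edgeR quasi-likelihood test), from 20.9 ± 1.75 to 16.1 ± 0.673 CPM (SD, n = 3).

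Of 33 genes for squamous differentiation and the cornified envelope, 10 were tested and 16 were at 0 counts in every library, among them Krt6b and Krt16. The 1 gene called lower was Krt1, a keratin of the suprabasal epidermis, with counts of 33, 21 and 22 in WT and of 14, 7 and 8 in ISM1-/- and a log2 fold change of −1.41 (SE 0.388, Benjamini-Hochberg adjusted p = 0.0997, edgeR quasi-likelihood test). This call was lost in each of the 6 fits with a library left out, while the log2 fold change stayed between −1.71 and −1.14. Calml3, a calmodulin-like gene of epithelia, was at 6.21, 6.63 and 5.51 CPM in WT and 3.55, 2.61 and 4.05 CPM in ISM1-/- (log2 fold change −0.84, adjusted p = 0.0375 in the same test), and Dmkn, a secreted protein of the epidermis, had −0.60 at an adjusted p of 0.0201. Both stayed short of 2-fold. The envelope genes Ivl (0.719 ± 0.274 and 0.558 ± 0.0669 CPM) and Tgm1 (4.06 ± 0.553 and 3.75 ± 0.468 CPM, WT and ISM1-/-) overlapped between genotypes.

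Transcription factors of squamous and basal cells gave 0 calls among 15 tested of 17 by edgeR or DESeq2, with 5 lower and 1 higher at an unadjusted p under 0.05. Sox2, a factor of the airway epithelium and of basal cells, lay at 20.4, 18.1 and 18.3 CPM in WT and 15.6, 15.1 and 14.2 CPM in ISM1-/- (log2 fold change −0.34, Benjamini-Hochberg adjusted p = 0.0652, edgeR quasi-likelihood test). Among paralogs of the members, of which 12 of 13 were tested and 0 called by edgeR or DESeq2 (3 at an unadjusted p under 0.05), Trp73 had the clearest difference. This relative of Trp63, needed for ciliated cell differentiation, lay at 15.4, 15.6 and 15.1 CPM in WT and 9.55, 11.4 and 9.28 CPM in ISM1-/-, with a log2 fold change of −0.61 (SE 0.0985, adjusted p = 0.0186 in the same test), and its adjusted p was under 0.1 in 6 of 6 fits with a library left out. Trp53, the other relative, lay at 51.8 ± 1.59 and 52.7 ± 7.55 CPM (SD, n = 3).

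Genes of ciliated and secretory airway cells had lower means in the same libraries as Trp73. All 10 genes of the ciliated list had a lower mean in ISM1-/-, 6 of them at an adjusted p under 0.1, 8 at an unadjusted p under 0.05 and none by 2-fold. In 7 of the 10 all WT libraries lay above all libraries labelled ISM1-/-, against 12.3% of all genes tested. The list summed to 2310 to 2680 CPM in WT and 2170 to 2430 CPM in ISM1-/-, of which Sec14l3 alone had 1650 and 1570 CPM on average, a log2 fold change of −0.07. Foxj1, the master regulator of motile cilia, lay at 106, 124 and 116 CPM in WT and 84.9, 79.8 and 77.7 CPM in ISM1-/-. All 12 genes of the club and secretory list had lower means as well, 6 at an adjusted p under 0.1, 7 at an unadjusted p under 0.05 and none called, and 6 were without overlap in that direction. The sums were 25000 to 26900 CPM in WT and 16600 to 20800 CPM in ISM1-/-, of which Scgb1a1 alone had 20900 and 14700 CPM on average. No gene of either list was at 0. Tracheal cartilage genes, which accompany the large airways, summed to 7.23 to 9.52 CPM in WT and 6.35 to 8.12 CPM in ISM1-/-. Of 5 tested genes, 0 were called and 3 were lower at an unadjusted p under 0.05. The largest part of the sum was Col11a2 (3.81 and 4.03 CPM, WT and ISM1-/-), with a log2 fold change of 0.08, and Col9a3 had 0.04. Means were lower in ISM1-/- for Col2a1 (0.354 and 0.144 CPM, −1.28), Comp (0.549 and 0.215 CPM, −1.32) and Hapln1 (1.52 and 1.03 CPM, −0.55). Skeletal muscle genes summed to 17.9 to 26.8 CPM in WT and 10.5 to 16.3 CPM in ISM1-/-, with 0 of 6 called, 2 lower at an unadjusted p under 0.05, and Myh4 and Myog at 0. WT replicate 1, the library with the most heart muscle RNA, had the highest sum, of which Ckm alone was 15.9 CPM. The other WT libraries summed to 17.9 and 18.9 CPM. The log2 fold change of Ckm was −0.79, and −0.35 without WT replicate 1. Mesothelial genes summed to 328 to 365 CPM in WT and 330 to 448 CPM in ISM1-/-, with 0 of 8 called and 3 higher at an unadjusted p under 0.05. DESeq2 called none in these 5 lists. The part of these cell types in the members' levels was not tested.

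**Figure D4:**
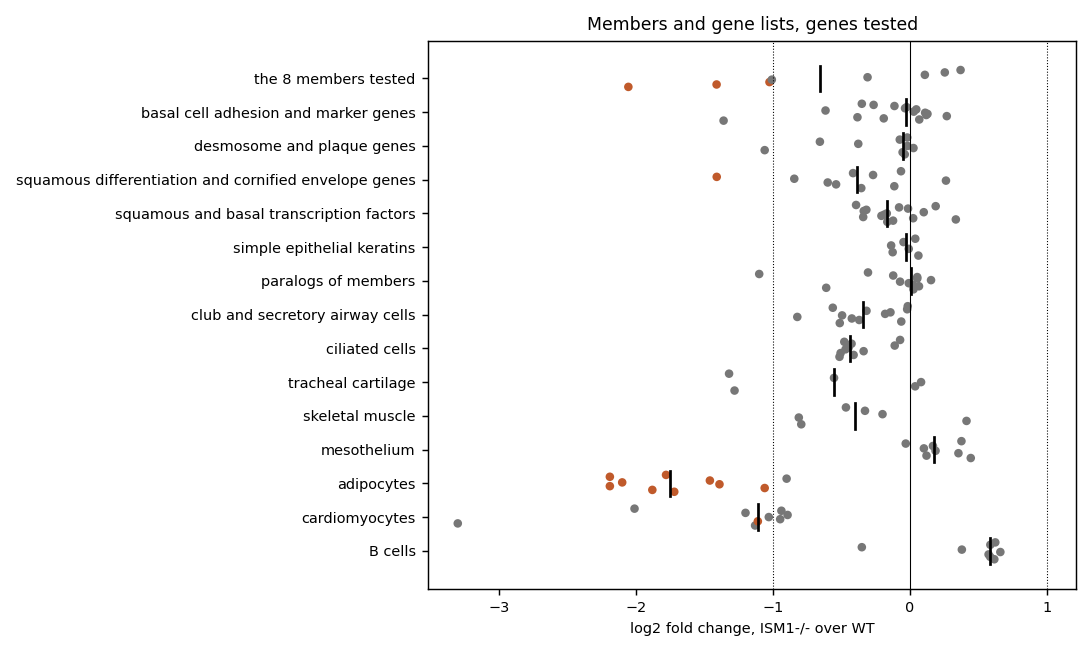
Log2 fold changes (horizontal axis) of the 8 members and of the tested genes of each list, 1 point per gene, with the list's median as a black bar. Orange points were called (adjusted p under 0.1 and 2-fold) and dotted lines mark a 2-fold change. The thymus list is left out because WT replicate 3 alone sets the values of Rag1, Rag2, Dntt, Psmb11 and Prss16. Its other tested genes, Cd4, Cd8a and Cd8b1, had log2 fold changes of 0.169, 0.165 and 0.16. The medians of the 6 partner lists lie between −0.39 and 0.01, against −0.66 for the members.

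Keratins as a family separated by level. The table holds 50 keratin genes, of which 15 were tested and 15 were at 0 in every library. The keratins of simple epithelium, which line alveoli and airways, led by far. Krt7 stood at 198 FPKM, Krt19 at 155 FPKM and Krt8 at 84.6 FPKM, beside 1.83 FPKM for Krt15. None of the 6 tested genes of the simple keratin list was called by edgeR or DESeq2 or had an unadjusted p under 0.05, and their log2 fold changes lay between −0.14 and 0.06. The 2 keratins called lower over the family were Krt15 and Krt1. Read sharing within the family was limited, with 5.18% of the 75-base words of Krt5 also found elsewhere, most of them in Krt6a, 5.71% for Krt14, most of them in Krt16, and 0% for Krt15. Krt15 lies between Krt13 and Krt19 on chromosome 11. Krt13 had 31 counts in all and Krt19 had 36203, and of 44 tested genes within 1000000 bases on each side of Krt15, 0 were called (4 at an unadjusted p under 0.05, and 0 with DESeq2).

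**Figure D5:**
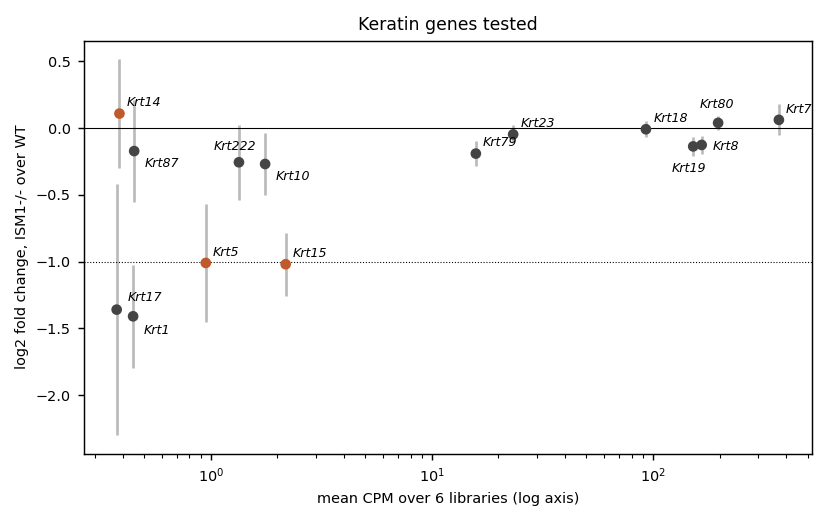
Mean level over 6 libraries (horizontal log axis, CPM) and log2 fold change ± standard error (vertical axis) of the 15 keratins tested, members in orange. The 7 keratins above 10 CPM lie within 0.2 of no change, and the keratins below −1 (Krt15, Krt5, Krt1 and Krt17) are all under 3 CPM.

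The genes whose profile over the 6 libraries was nearest to the mean profile of the tested members were Nfe2l3, a transcription factor gene, Tg, the thyroglobulin gene, Cyp46a1, a cholesterol hydroxylase, Plin5, a lipid droplet protein, and Lhb, the luteinizing hormone beta subunit. Nearness was the root mean square difference of log2 CPM after centring each gene on its own mean, over 6 libraries and 15870 candidate genes, and it ranged from 0.0711 for Nfe2l3 to 0.084 for Lhb. All 5 had WT libraries above all libraries labelled ISM1-/-, which the choice fixed in advance. The mean profile was 0.409, 0.102 and 0.394 in WT and −0.263, −0.393 and −0.249 in ISM1-/-. The tested members themselves lay 0.252 (Sfn) to 0.836 (Tmem45b) from this mean, so it is the profile of no single member. None of the 5 genes was called, since their log2 fold changes lay between −0.68 and −0.46. None of these genes is one of the listed partners.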

How the data were processed

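RNA was isolated from perfused whole lungs, enriched for poly-A transcripts and made into strand-specific libraries that were sequenced in read pairs. The authors mapped the reads to GRCm38 with STAR and deposited raw counts per gene without normalization. They also deposited FPKM values, in which counts are divided by the library total and a gene length. The counting program, annotation release and strand setting are not given in the sources used here, so genes that overlap a member are named with their counts.

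The count table was fitted with edgeR 4.0.16 under R 4.3.3. The filter asked for 0.5 CPM or more in 1 or more libraries and left 18689 genes. Libraries were scaled by TMM and WT was set against ISM1-/- by the quasi-likelihood test without covariates, with Benjamini-Hochberg adjustment over all genes tested. Log2 fold changes are ISM1-/- over WT. The alternatives were DESeq2 1.42.0, RLE size factors, library totals, other filters and thresholds, the replicate number as a block and the omission of each library in turn. DESeq2 gave no adjusted p for 1456 genes, Krt14 among them, which enter none of its counts. The joint omission of WT replicates 1 and 3 and the B cell list were added after seeing the data. Counts of all library pairs differed by more than sampling noise. The fit was tested on simulated data.

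The members and the gene lists were chosen with earlier results of these data known. Genes named beside the members were, in each list, those called and up to 3 with the largest change among those averaging 1 CPM or more, the 5 genes nearest in profile, and neighbours and overlapping genes. Other genes were named after their values were seen, to show a list's range or its defining members. Promoter windows came from RefSeq (GRCm38.p6) and shared 75-base words from GENCODE transcripts of GRCm38. Single genes of the lists that are counted but not named are not reported here.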

Additional observations from a re-analysis of the deposited data

How the results depend on the processing

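The number of members called lower was 3 in all libraries and in the fits with DESeq2, RLE size factors, library totals, 0.5 CPM in at least 3 libraries and no fold minimum. It was 2 with a mean above 2 CPM, which removes Tmem45b, 4 with no filter, 1 at an adjusted p under 0.05, 1 to 3 with each library left out in turn, and 0 without WT replicates 1 and 3 together, where the log2 fold changes of Sprr1a, Tmem45b and Krt15 were −1.30, −1.80 and −0.87 with a lone WT library. With the replicate number as a block it was also 3, with 130 genes called and a median of −0.60, but same-numbered libraries correlated at only −0.0405 to 0.031, so the numbers do not pair the libraries. Over all genes the number called was 106, it was 37 with a mean above 2 CPM, 293 with no filter on low counts, 51 at an adjusted p under 0.05, 882 with no fold minimum and 31 to 188 with a library left out. The median log2 fold change of the members was −0.66, it was −1.01 with 0.5 CPM in at least 3 libraries, −0.52 with no filter, and −0.91 to −0.36 with a library left out, because other members were then tested or other libraries used. The number of partner genes called was 1 (Krt1), and it was 0 with DESeq2 (which gave Krt1 no adjusted p), RLE size factors (−1.41 as in all libraries), a mean above 2 CPM (which removes Krt1), an adjusted p under 0.05 and each library left out, and 10 with no fold minimum. Krt5 was called only with no filter (Benjamini-Hochberg adjusted p = 0.0911, edgeR quasi-likelihood test).

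Log2 fold changes that turned were those of Krt5 (0.12 without WT replicates 1 and 3 together) and Krt14 (−0.11 in that fit and −0.0757 to 0.38 with a library left out). With a library left out, Evpl ranged from −0.16 to 0.01 (0.00576), Krt7 from −0.0797 to 0.14, Col11a2 from −0.025 to 0.29, Col9a3 from −0.0275 to 0.10 and Prss16 from −3.44 to 1.07. The cause was not tested. Depth limits Krt4, Krt13 and Krt14 most, with 1 to 20 counts per library.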
